A study of Mus musculus with 10 samples.

Results

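Hey1, Hey2, Heyl, Hes1 and Hes6 encode transcriptional repressors of the hairy/enhancer-of-split family, and their transcripts were measured in cardiomyocytes from the atria and ventricles of WT mice. The 5 genes were chosen by name from 25239 gene symbols, and each had a value in every library. Cardiomyocytes are the contractile muscle cells of the heart. RNA was sequenced from 5 libraries of atrial cardiomyocytes (tissue atrium, genotype WT) and 5 of ventricular cardiomyocytes (tissue ventricle, genotype WT). The labels name no treatment, age, sex or strain, and whether each library came from its own animal is not stated. The spread behind the p-values may therefore be technical. Values are normalized reads, that is, read counts divided by a size factor of each library. Log2 differences are atrial minus ventricular on log2(normalized reads + 1), so a positive value means higher in atrial cells.

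HEY and HES proteins share a basic helix-loop-helix domain for DNA binding and pairing and an Orange domain next to it. They are best known as direct targets of Notch signalling: the cleaved receptor enters the nucleus, joins the DNA-binding protein RBPJ, and switches on HES and HEY genes, whose products then repress others. In the developing heart Hey1 marks the atrial and Hey2 the ventricular myocardium, and loss of Hey2 lets ventricular muscle express atrial genes. Hes6 is the exception in this group, since its protein is known to hinder HES1.

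The starts of Hey2 and Hes6 are shown because only these members were matched to a promoter window. Hey2 had the largest chamber difference of the 5 members, and Hes6 had no detected difference. Both windows are RefSeq promoters of build GRCm38.p6, with 250 bases before and 50 after the transcription start, on the minus strand and written 5′ to 3′; 2 of the 5 members were matched in that table. The Hey2 window is chr10:30842734-30843033. The table holds 2 windows for Hes6, and the printed one, chr1:91413989-91414288, is at the outer start of the gene. Capitals mark matches, on either strand, to GTGGGAA (an extended RBPJ site, which contains its core TGGGAA), the E-box CACGTG preferred by HEY proteins, the related site CACGCG preferred by HES proteins, the N-box CACNAG also bound by HES proteins, and the E-box CAGCTG (a site of activating helix-loop-helix factors, the same on both strands).
Hey2: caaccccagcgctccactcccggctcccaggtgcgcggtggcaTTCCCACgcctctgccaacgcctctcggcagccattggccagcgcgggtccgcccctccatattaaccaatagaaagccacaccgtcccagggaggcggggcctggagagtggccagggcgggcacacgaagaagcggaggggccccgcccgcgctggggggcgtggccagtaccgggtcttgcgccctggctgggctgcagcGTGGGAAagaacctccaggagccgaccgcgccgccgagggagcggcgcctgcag
Hes6: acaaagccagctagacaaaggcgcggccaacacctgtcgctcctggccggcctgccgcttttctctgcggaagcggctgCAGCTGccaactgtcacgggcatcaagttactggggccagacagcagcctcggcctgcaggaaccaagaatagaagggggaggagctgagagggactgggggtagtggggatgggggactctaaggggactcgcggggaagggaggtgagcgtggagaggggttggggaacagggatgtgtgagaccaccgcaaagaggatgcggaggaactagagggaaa

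The Hey2 window held GTGGGAA at 2 places, starting at bases 44 (minus strand) and 247 (plus strand) of the window. Of 32851 promoter windows of the same length, 6.38% held these letters at least once and 0.256% at 2 or more places. The shorter TGGGAA was in 25.6% of windows, CACGTG in 7.15%, CACGCG in 9.27%, CACNAG in 42.5% and CAGCTG in 16.3%. The printed Hes6 window held CAGCTG, at base 80. The other Hes6 window, chr1:91413173-91413472, held CACNAG at 2 places, starting at bases 14 (plus strand) and 266 (minus strand), and CAGCTG at base 101. The Hey2 window had 72% G and C bases and the Hes6 windows 62% and 65%, against a median of 52.7% over all windows. A match is a match of letters and not a site shown to be bound.

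Hey2 was high in every ventricular library and low in every atrial one. Hey2 (ENSMUSG00000019789, chromosome 10, 30832359 to 30842801, minus strand) stood at 11.03, 11.5, 19.3, 21.2 and 27.7 normalized reads in atrial replicates 1 to 5. It stood at 599, 889.6, 911, 768 and 819 in ventricular replicates 1 to 5. The lowest ventricular library was thus far above the highest atrial one, and the groups did not overlap. The atrial values rest on 8 to 43 reads per library and the ventricular ones on 173 to 1470. The mean of Hey2 was 18.2 ± 7.003 over atrial and 797 ± 125 over ventricular libraries (SD, n = 5), 43.9-fold higher in ventricular cells. Its log2 difference was -5.45 ± 0.25 (SE; limma, adjusted p = 5.19e-07), which ranked 7 of the 12422 tested genes toward ventricular cells.

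Hey1 went the other way. Hey1 (ENSMUSG00000040289, chromosome 3, 8663359 to 8667256), the close relative of Hey2, stood at 81.4, 128, 64.2, 82.0 and 72.7 normalized reads in atrial replicates 1 to 5. In ventricular replicates 1 to 5 it stood at 34.6, 14.6, 27.9, 22.1 and 14.8. All 5 atrial libraries were above all 5 ventricular ones. Hey1 averaged 85.7 ± 24.8 in atrial and 22.8 ± 8.60 in ventricular cells (SD, n = 5), 3.76-fold higher in atrial cells. On the log2 scale Hey1 differed by 1.90 ± 0.28 (limma, adjusted p = 0.00101). The ventricular values rest on few reads: the 14.6 of replicate 2 came from 6 reads, with a 95% exact Poisson interval of 5.37 to 31.8 normalized reads that covers counting error only.

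Of the 5 members, 2 passed the test between chambers, Hey1 toward atrial and Hey2 toward ventricular cells. Of all 12422 genes tested, 14.7% passed, 8.12% toward atrial and 6.56% toward ventricular cells. Groups did not overlap for the same 2 members, and for 14.4% of all tested genes. All 5 members passed the filter of a mean of at least 10 normalized reads. None of the 5 genes overlaps another gene of the tables in GENCODE release M21.

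**Figure D1:**
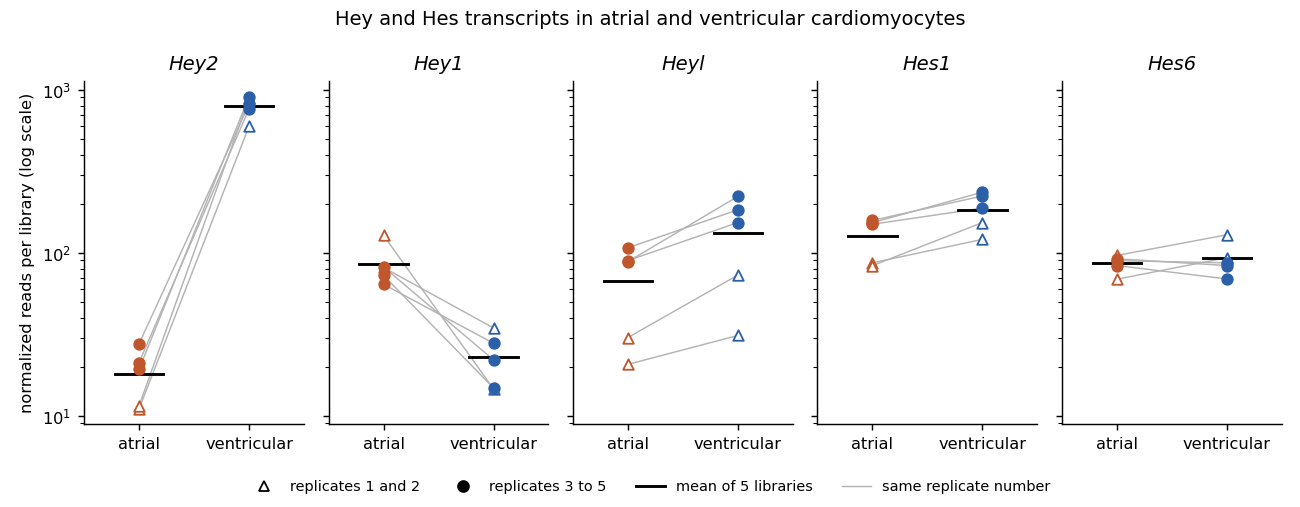
Normalized reads of each gene in each library, on a log axis, with atrial libraries on the left and ventricular libraries on the right of each panel; open triangles are replicates 1 and 2, filled circles replicates 3 to 5, black bars the means of 5 libraries, and grey lines join the same replicate number. Hey2 lies between 11.03 and 27.7 in atrial and between 599 and 911 in ventricular libraries, Hey1 falls from atrial to ventricular in 5 of 5 replicate numbers, and Heyl and Hes1 are higher in the ventricular library of every replicate number.

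Heyl and Hes1 were higher in the ventricular library of each of the 5 replicate numbers, though their groups overlapped and neither passed the test without a replicate block. Heyl (ENSMUSG00000032744, chromosome 4, 123233556 to 123249875), the third HEY gene and known from vascular smooth muscle, stood at 20.7, 30.2, 89.8, 88.4 and 107 normalized reads in atrial replicates 1 to 5. In ventricular replicates 1 to 5 it stood at 31.1, 73.1, 154, 223 and 184. Replicates 1 and 2 were low in both chambers, so the 2 lowest ventricular libraries lay within the atrial range. Heyl averaged 67.3 ± 39.1 in atrial and 133 ± 79.1 in ventricular cells (SD, n = 5), 1.97-fold higher in ventricular cells. On the log2 scale Heyl differed by -0.94 ± 0.61 (limma, adjusted p = 0.397). With the replicate number as a block the same difference had an SE of 0.15 (limma, adjusted p = 0.00168).

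Hes1, the widely expressed Notch target (ENSMUSG00000022528, chromosome 16, 30064384 to 30067796), stood at 86.9, 83.5, 150.0, 153 and 158 normalized reads in atrial replicates 1 to 5. In ventricular replicates 1 to 5 it stood at 121, 154, 188, 236 and 224. The ventricular library was the higher in 5 of 5 replicate numbers, and the group ranges overlapped. Means were 126 ± 37.8 in atrial and 185 ± 47.9 in ventricular cells (SD, n = 5), 1.46-fold. The log2 difference was -0.56 ± 0.25 (limma, adjusted p = 0.190), and with the replicate block its SE was 0.10 (limma, adjusted p = 0.00384).

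Hes6 showed no detected difference. Hes6 (ENSMUSG00000067071, chromosome 1, 91411483 to 91414038) stood at 69.0, 96.4, 92.0, 89.6 and 83.7 normalized reads in atrial replicates 1 to 5, and at 93.4, 129, 83.7, 86.9 and 69.2 in ventricular replicates 1 to 5. Every ventricular library except replicate 2 lay within the atrial range, and the ventricular library was the higher in 2 of 5 replicate numbers. Its log2 difference was -0.08 ± 0.18 (limma, adjusted p = 0.863), with a 95% interval of -0.47 to 0.31. Equality of the chambers is not shown by this.

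With the replicate block 4 of the 5 members passed, Hey1 toward atrial cells and Hey2, Heyl and Hes1 toward ventricular cells, where 32.3% of all tested genes passed in either direction. Labels number the libraries of both chambers 1 to 5, and the deviations of libraries that share a number went together. The replicate number was used as a block in an alternative fit only, and the main test had no block. Those deviations still hold the division of libraries described next, so they cannot show that equal numbers are true pairs. The data also divide the libraries in a way the labels do not mention. Replicates 1 and 2 held 1790402 to 4445287 recovered reads with 0.215% to 0.480% from the ribosomal RNA precursor Rn45s. Replicates 3 to 5 held 11163805 to 12842635 reads with 23.1% to 29.8% from it. Reads fell on 21576 genes in replicate 1 of the atria, 19232 in replicate 1 of the ventricles and 15950 to 16618 elsewhere.

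The members differed in how they followed this division. Heyl was higher in replicates 3 to 5 than in replicates 1 and 2 by 1.90 ± 0.22 on the log2 scale (limma with chamber as a term, adjusted p = 2.60e-05). Hes1 was higher by 0.75 ± 0.11 (adjusted p = 0.000121) and Hey2 by 0.56 ± 0.18 (adjusted p = 0.0192). Hey1 (-0.30 ± 0.26, adjusted p = 0.363) and Hes6 (-0.17 ± 0.16, adjusted p = 0.391) did not pass. Of all tested genes 52.7% passed this test, so a member that differs between the sets is not unusual.

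Within each set the chamber differences of Hey2, Hey1, Heyl and Hes1 kept their direction. In replicates 3 to 5 alone, Hey2 differed by -5.15 ± 0.11, Hey1 by 1.75 ± 0.19, Heyl by -0.95 ± 0.12 and Hes1 by -0.48 ± 0.09. All 4 passed there (limma, adjusted p = 2.27e-20, 3.24e-08, 7.32e-07 and 4.16e-05), as did 52.8% of all tested genes. In replicates 1 and 2 alone, Hey2 differed by -5.90 ± 0.33 (adjusted p = 3.83e-05) and Hey1 by 2.13 ± 0.50 (adjusted p = 0.0489), and 5.14% of all tested genes passed. Heyl (-0.91 ± 0.55, adjusted p = 0.447) and Hes1 (-0.67 ± 0.29, adjusted p = 0.269) did not pass in those libraries. Hes6 pointed in opposite directions, -0.43 ± 0.34 in the first set against 0.15 ± 0.11 in the second, and passed in neither. The difference between the sets in the chamber effect was tested as an interaction. It passed for none of the 5 members (limma, adjusted p = 0.161 for Hey2 and 0.280 to 0.970 for the others), against 5.21% of all tested genes.

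**Figure D2:**
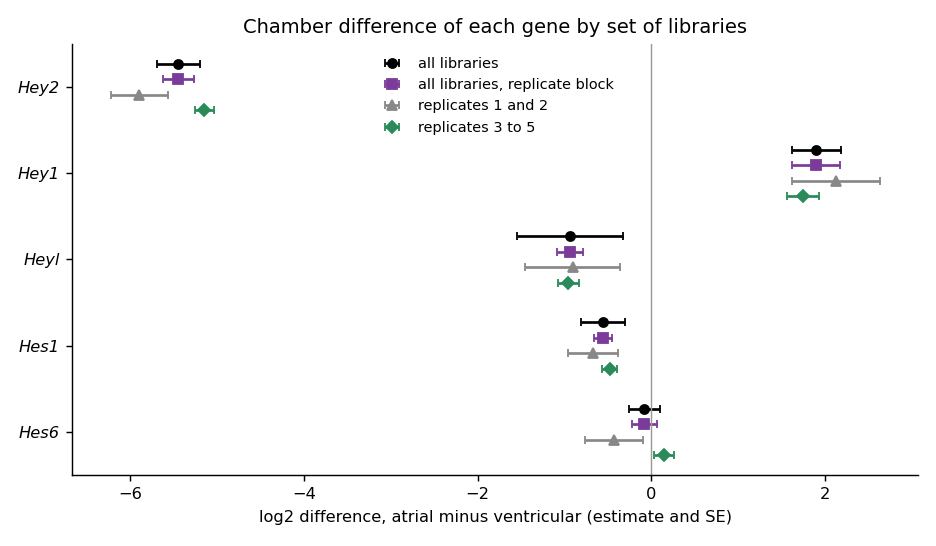
Log2 difference of each gene, atrial minus ventricular, as estimate and SE, in all libraries (black circles), in all libraries with the replicate block (purple squares), in replicates 1 and 2 (grey triangles) and in replicates 3 to 5 (green diamonds). Hey2 lies between -5.90 and -5.15 and Hey1 between 1.75 and 2.13 over the 4 fits. For Heyl the SE falls from 0.61 without the block to 0.15 with it at the same estimate of -0.94.

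Levels of different genes were compared per kilobase of merged exons. In atrial cells the order was Hes1 (62.0 ± 18.5 normalized reads per kb, SD, n = 5), Hes6 (47.6 ± 5.89), Hey1 (26.2 ± 7.60), Heyl (13.2 ± 7.65) and Hey2 (3.95 ± 1.52). Hes1 exceeded Hes6 in 4 of 5 atrial libraries, each other neighbour in this order held in 5 of 5, and the ranges of all neighbours overlapped. In ventricular cells Hey2 came first, at 174 ± 27.2 normalized reads per kb, and lay above Hes1 (90.6 ± 23.5) in range as well as in mean. Hes6 (51.1 ± 12.4), Heyl (26.0 ± 15.5) and Hey1 (6.98 ± 2.63) followed, each overlapping the range of the next. Hey2 thus went from the last of the 5 in each atrial library to the first in each ventricular library.

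The balance within the HEY genes shifted with it. Per kilobase, the Hey2 level was 0.0639 to 0.271 times the Hey1 level in atrial libraries and 12.3 to 43.2 times in ventricular libraries. As a ratio within a library this does not depend on how libraries are scaled. Hey2 made up 9.02% ± 2.65 of the summed Hey1, Hey2 and Heyl level in atrial and 84.4% ± 5.69 in ventricular libraries (SD, n = 5). The summed level of the 3 HEY genes was 31.4 to 49.3 normalized reads per kb in atrial and 147 to 237 in ventricular libraries. These sums and shares are descriptions of genes chosen with results known, and carry no test.

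**Figure D3:**
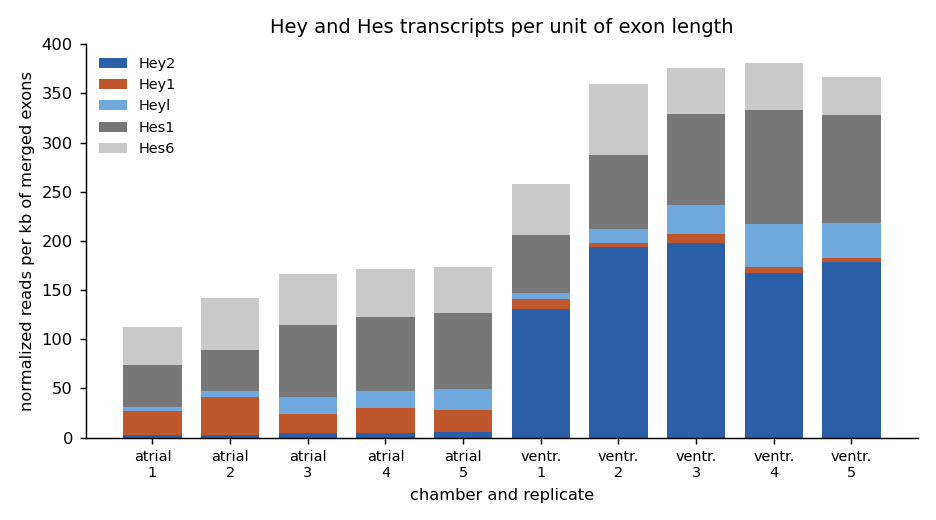
Stacked bars of normalized reads per kilobase of merged exons for the 5 genes in each of the 10 libraries, starting at 0. The total is 112 to 173 in atrial and 258 to 381 in ventricular libraries, and the dark blue Hey2 segment grows from at most 6.03 to at least 130.3.

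Genes with the most similar pattern were sought by Pearson correlation of log2 values over the 10 libraries, which share chamber and library set, among genes averaging at least 100 normalized reads. For Hey2 they were Sh3kbp1, an adaptor protein (r = 0.995), Fbxo40, a muscle ubiquitin ligase subunit (r = 0.994), and Perm1, a regulator of muscle mitochondria (r = 0.993). These genes were themselves higher in ventricular cells but by less, with log2 differences of -1.60, -2.05 and -2.45. For Hey1 they were the protease gene Ctsc (0.966), Sardh (0.956) and Tiparp (0.956). For Heyl they were Armc1 (0.989), Pls3 (0.987) and Aldh9a1 (0.982), and for Hes1 the calcium sensor gene Stim1 (0.980), Pa2g4 (0.979) and Atp5e (0.975). The nearest to Hes6 reached Ddrgk1 (0.929), Tmed1 (0.921) and Ift81 (0.919).

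Among the members themselves, Heyl and Hes1 were the most alike, with r = 0.963 over the 10 libraries and 0.972 once each chamber's mean was removed. Hey1 and Hey2 correlated at -0.939 over all libraries and at -0.529 within chambers. Hes6 had coefficients between -0.154 and 0.185 with the other 4. All these coefficients are descriptions over the same 10 libraries, which share chambers and library sets.

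Cell type markers place these values. Counts of markers that passed, here and in the next paragraphs, stand beside 14.7% of all tested genes, and 32.3% with the replicate block. All libraries carried cardiomyocyte transcripts at high levels: the 10 listed markers summed to 398340 to 878624 normalized reads in atrial and 408725 to 751978 in ventricular libraries. The myosin gene Myh6 had the highest mean in each chamber. The highest sum was in replicate 1 of each chamber, and Ttn was lower in replicates 3 to 5 (-2.80 on the log2 scale). Of the 10 listed markers, 1 passed toward ventricular cells, Mybpc3 (-1.22 ± 0.27), and 5 with the replicate block. Markers of other cells were present too, and in bulk RNA fewer cells of a type and less RNA per cell cannot be told apart. Immune markers summed to 77.2 to 188 in atrial and 24.8 to 152 in ventricular libraries, and neuronal and Schwann cell markers to 40.5 to 105 and 30.7 to 65.8. Of 3 tested immune markers 1 passed, Csf1r, toward atrial cells (1.86 ± 0.20, limma, adjusted p = 0.000153). No listed marker was at 0 in all 10 libraries.

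HEY genes are also active in blood vessels and endocardium, so those markers stand beside the members. Of 13 tested endothelial and endocardial markers, 3 passed toward atrial cells and 1 toward ventricular cells. With the replicate block the counts were 5 and 1, with Egfl7 and Esam added toward atrial cells. Their sum was 1382 to 5124 normalized reads over atrial libraries and 431 to 1969 over ventricular ones. The 3 atrial ones were Npr3, an endocardial receptor gene (log2 difference 2.13 ± 0.46), and the endothelial receptor genes Kdr (1.91 ± 0.51) and Tek (1.01 ± 0.29), and the ventricular one was the arterial connexin gene Gja4 (-2.63 ± 0.66). Npr3, the list's highest gene in atrial cells, stood at 1154, 487, 887, 879 and 924 normalized reads in atrial and at 128, 60.9, 266, 347 and 343 in ventricular replicates 1 to 5. As for Hey1, the groups did not overlap. Pecam1, a pan-endothelial gene, did not pass (-0.48 ± 1.40, limma, adjusted p = 0.901). It stood at 3.86 to 5.11 in atrial and 9.91 to 14.7 in ventricular replicates 3 to 5. Tek, which passed toward atrial cells, stood at 495 to 530 and 314 to 379 in the same libraries. In atrial replicate 1 Pecam1 reached 626 and in ventricular replicate 1 it reached 329. Without replicate 1 of both chambers, an alternative chosen after seeing the data, the log2 differences were 2.07 for Hey1 and -5.40 for Hey2. Of 8 tested epicardial markers 7 were higher in atrial cells, with sums of 2884 to 6901 in atrial and 432 to 2763 in ventricular libraries, and the part of endocardial, endothelial or epicardial cells in the Hey1 difference was not tested.

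Some smooth muscle and pericyte markers were higher in ventricular cells, as Hey2 was. Of 12 tested, 4 were higher in ventricular cells and 0 in atrial cells, and their sum was 6853 to 15969 in atrial and 17946 to 26533 in ventricular libraries. With the replicate block 7 passed toward ventricular cells and 2 toward atrial cells. The 4 were the smooth muscle myosin gene Myh11 (log2 difference -5.33 ± 0.31), the smooth muscle actin gene Acta2 (-2.87 ± 0.61), Abcc9 (-1.91 ± 0.13) and Cspg4 (-1.65 ± 0.21). Myh11 stood at 82.8, 21.6, 39.8, 25.9 and 34.1 normalized reads in atrial and at 1183, 1806, 1346, 1703 and 1578 in ventricular replicates 1 to 5, a difference near that of Hey2. Cnn1 (1.76 ± 0.58), Kcnj8 (1.31 ± 0.53) and Mcam (0.78 ± 0.41) had positive values and did not pass; Cnn1 and Mcam passed toward atrial cells with the block (limma, adjusted p = 0.0001 and 0.00476). The summed level was higher in replicates 1 and 2 than in replicates 3 to 5 of each chamber. Its highest gene was Des in atrial and Acta2 in ventricular cells. By gene, on the log2 scale, Acta2 (-1.83) and Des (-0.58) were lower in replicates 3 to 5. Rgs5 (1.75) and Notch3 (1.57) were higher there, as Heyl was. The list holds Abcc9 and Des, which cardiomyocytes also express. Rgs5, a pericyte gene, stood at 105, 266, 479, 453 and 513 normalized reads in atrial and at 215, 349, 948, 1235 and 1100.2 in ventricular replicates 1 to 5, low in replicates 1 and 2 as Heyl was (-0.99 ± 0.58, limma, adjusted p = 0.331; 0.000898 with the block). Of 9 fibroblast markers 2 were higher in ventricular cells. The sums of the 9 were 21905 and 29380 in atrial and 9484 and 21054 in ventricular replicates 1 and 2. In replicates 3 to 5 the sums were 34775 to 36817 in atrial and 50275 to 65866 in ventricular libraries. The order of the chambers in this sum thus differed between the library sets. The part of these cells in the differences of Hey2, Heyl and Hes1 was not tested.

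Of 12 listed Notch receptors and ligands 7 were tested, and 1 passed toward atrial cells and 0 toward ventricular cells. With the replicate block 1 passed toward atrial and 2, Notch3 and Dlk1, toward ventricular cells. Jag2, a ligand, was 3.08-fold higher in atrial cells (log2 difference 1.80 ± 0.39, limma, adjusted p = 0.00924). Jag2 stood at 64.8, 66.2, 71.6, 85.5 and 68.9 normalized reads in atrial and at 48.4, 7.31, 23.5, 20.7 and 16.1 in ventricular replicates 1 to 5, and the groups did not overlap. Notch3, the receptor of vascular smooth muscle, stood at 69.0, 24.5, 114, 115 and 122 in atrial and at 114, 105, 315, 381 and 349.7 in ventricular replicates 1 to 5. Its log2 difference was -1.49 ± 0.52 (limma, adjusted p = 0.0861; 0.000393 with the block). Dlk1, a noncanonical ligand, differed by -0.84 ± 0.56 (limma, adjusted p = 0.409; 0.00882 with the block). Notch1, Notch2, Notch4 and the ligand Jag1 did not pass, with log2 differences of -0.46, -0.06, 0.08 and 0.11. The list median was -0.06, against -0.01 over all genes tested. Of all genes tested 14.7% passed, and 32.3% with the block.

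Counts for the processing and nuclear parts of the pathway stand beside 14.7% of all tested genes that passed, and 32.3% with the replicate block. Of 24 tested genes that cleave, modify or degrade Notch proteins, 1 was higher in atrial and 2 in ventricular cells (median 0.15; 6 and 2 with the block, adding Adam10, Ncstn, Furin, Mib1 and Dtx3 toward atrial cells). Fbxw7, which marks the active Notch fragment for degradation, was higher in atrial cells by 0.87 ± 0.14. The ligand-activating ubiquitin ligase gene Neurl1b (-0.61 ± 0.13) and the protease gene Adam17 (-0.36 ± 0.09) were higher in ventricular cells. Of 14 tested genes of the RBPJ complex and its brakes, 2 were higher in atrial cells, the coactivators Maml2 (1.01 ± 0.30) and Maml3 (0.72 ± 0.20), and 1 in ventricular cells. Rbpj itself had a log2 difference of -0.30 ± 0.35 (limma, adjusted p = 0.704).

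The gene of that list higher in ventricular cells was Nrarp, a Notch target that restrains the pathway. Nrarp stood at 17.9, 5.76, 15.9, 16.5 and 15.4 normalized reads in atrial and at 24.2, 43.9, 66.3, 84.2 and 56.2 in ventricular replicates 1 to 5. All ventricular libraries were above all atrial ones, 3.84-fold in the mean (log2 difference -1.84 ± 0.38, limma, adjusted p = 0.00770).

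HES and HEY proteins repress by recruiting corepressors, and TLE proteins bind the C-terminal end of HES proteins. Of 10 tested corepressor genes 2 were higher in atrial cells and 0 in ventricular cells (median 0.04), where 14.7% of all tested genes passed. With the block Tle4 was added toward ventricular cells (-0.51 ± 0.20, limma, adjusted p = 0.122; 0.0214 with the block). Tle3 stood at 258, 226, 248, 278 and 281 normalized reads in atrial and at 69.2, 65.8, 97.3, 145 and 119.8 in ventricular replicates 1 to 5, 2.59-fold higher in atrial cells (log2 difference 1.43 ± 0.21, limma, adjusted p = 0.00115). Tle1 was higher in atrial cells by 0.84 ± 0.22. Among the 7 other listed genes of this family, Hes2, Hes3, Hes5, Hes7 and Helt did not reach the filter. Bhlhe40, a clock-linked repressor, was 1.91-fold higher in atrial cells (1.02 ± 0.28, limma, adjusted p = 0.0296), and Bhlhe41 did not pass (0.11 ± 0.35).

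Heart genes described elsewhere as under HEY control divided into 4 that were higher in atrial cells and 7 that did not pass, with 0 higher in ventricular cells (median 0.32). With the replicate block 5 passed toward atrial cells and 1, Tbx2, toward ventricular cells. Over all tested genes 14.7% passed, and 32.3% with the block. The T-box factor Tbx20 was the one added toward atrial cells (0.80 ± 0.27, limma, adjusted p = 0.0816; 0.00013 with the block). The 4 were the atrial light chains Myl7 (log2 difference 6.62) and Myl4 (5.90), the natriuretic peptide gene Nppa (4.57) and the T-box factor Tbx5 (3.46). These are general atrial marker genes and were known to differ in these libraries when the list was written. Tbx2 and Bmp2, which HEY proteins keep out of the chambers in the embryo, had log2 differences of -1.15 ± 0.50 (limma, adjusted p = 0.175; 0.00528 with the block) and 0.32 ± 0.29 (adjusted p = 0.587). Gata4 and Gata6, whose proteins HEY proteins bind, differed by -0.19 and 0.02, and neither passed.

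**Figure D4:**
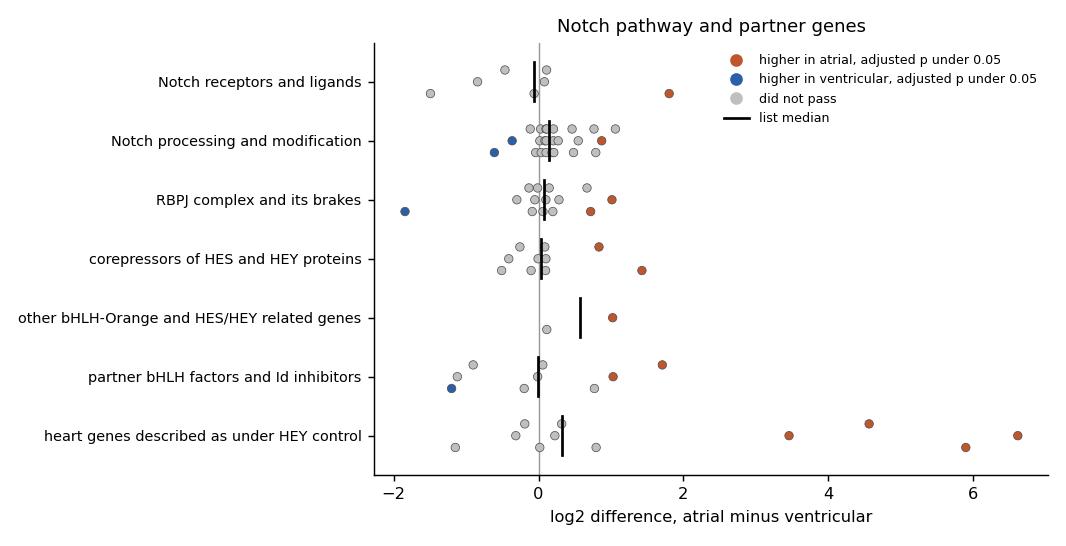
Log2 difference of each tested gene of 7 lists, atrial minus ventricular, with 1 point per gene, orange where higher in atrial and blue where higher in ventricular cells at an adjusted p under 0.05, grey where the gene did not pass, and black bars for list medians. Most points are grey and near 0, the blue point at -1.84 is Nrarp, and the 4 orange points to the right of 3 are Tbx5, Nppa, Myl4 and Myl7.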

How the data were processed

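Per the labels' protocols, RNA was taken up in Trizol and sequencing libraries came from a ScriptSeq v2 kit. Trimmomatic, HISAT2 and featureCounts were used on build GRCm38 (mm10), per the submitters' processing notes. No source used here gives tool versions, annotation or strand setting. Each file holds 1 signal value per gene: a read count after the authors' division by the library's DESeq2 size factor, per the file headers. Dividing by the smallest step gave whole reads, within 0.01, for 100% of values, and so the depth of each library.

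Of 25239 symbols, 12422 averaged at least 10 normalized reads and were tested with limma 3.58.1 (R 4.3.3; trend and robust variance, two-sided) on log2(value + 1), Benjamini-Hochberg adjusted at 0.05 over all of them. edgeR 4.0.16 and DESeq2 1.42.0 on the recovered reads were alternatives. The main test had no replicate block. Same-numbered libraries' deviations correlated at 0.556 to 0.637, which is over 0.1 in every pair, so blocked values are printed for the members, for list counts that they alter by over 1.5 times and for named genes whose call they alter. Library set was not removed from these deviations, so they do not separate pairing from library set. Replicates differed by more than sampling noise. The limma step was tested on simulated data. The simulated libraries held no library set effect and no pairing, so that test does not cover these features of the real data.

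Members and gene lists were chosen with earlier results of these data known. Named were the members, up to 4 called genes of each pathway list with the largest difference (or the 2 with the smallest p), each marker list's highest gene and the 3 genes most similar to each member; further list genes were named after their values were seen. Positions and merged exon lengths are from GENCODE M21. A value of 0 allows up to 3 reads, 1.70 to 10.4 normalized reads by library. Without a stated strand setting, antisense reads cannot be told apart.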

Additional observations from a re-analysis of the deposited data

Results flagged for a closer look

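Hey1 in atrial replicate 2 stood at 128 normalized reads, far from the other 4 atrial libraries, which lay between 64.2 and 82.0. The value rests on 89 reads, with a 95% exact Poisson interval of 103 to 158 normalized reads that covers counting error only. This was 1 such sample among 10 groups examined, and chance alone marks about 1 group in 20. Without that library the log2 difference of Hey1 was 1.75 (limma, adjusted p = 0.00240), and over all 10 left-out libraries its adjusted p was 0.000605 to 0.00413.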

How the results depend on the processing

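Hey1 and Hey2 kept their direction and passed in all 24 alternatives, with log2 differences of 1.72 to 2.13 and of -5.90 to -5.15. Leaving out each library in turn gave 1.75 to 2.06 and -5.61 to -5.30 for them, -1.38 to -0.59 for Heyl, -0.70 to -0.42 for Hes1 and -0.18 to 0.047 for Hes6. Heyl and Hes1 passed with the replicate block (-0.94 and -0.56), with library set as a term (-0.94 and -0.56; adjusted p = 0.00578 and 0.00153) and in replicates 3 to 5 alone (-0.95 and -0.48), and in none of the other 21 alternatives each; their SE was smaller in these 3 fits. Hes6 changed sign in replicates 3 to 5 alone (0.15), without ventricular replicate 2 (0.047) and without replicate 1 of both chambers (0.0083, an alternative chosen after seeing the data), and passed in none. The count of genes called between chambers was 1824, against 4017 with the replicate block, 3955 with library set as a term, 6561 in replicates 3 to 5 and 638 in replicates 1 and 2, and 1365 to 1938 without single libraries. The cause of these shifts was not tested. The replicate block changed no call among the 5 members other than those of Heyl and Hes1. Depth limits Hey1 in ventricular cells (6 to 45 reads per library), Hey2 in atrial cells (8 to 43) and Heyl in replicates 1 and 2 (9 to 30).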

Other observations

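HES and HEY proteins act within a wider set of helix-loop-helix factors, and some of these also differed between the chambers. Of 13 listed partner factors and Id inhibitors 9 were tested, and 2 passed toward atrial cells and 1 toward ventricular cells, against 14.7% of all tested genes. With the replicate block 3 passed toward each chamber, against 32.3% of all tested genes. The block added Id3 toward atrial and Hand2 and Tcf21 toward ventricular cells. The list median was -0.01, as over all genes tested. Id2, whose protein binds helix-loop-helix factors and keeps them off DNA, stood at 240.0, 284, 289, 315 and 323 normalized reads in atrial and at 90.0, 87.7, 80.6, 96.9 and 83.4 in ventricular replicates 1 to 5. The groups did not overlap, and Id2 was 3.31-fold higher in atrial cells (log2 difference 1.71 ± 0.12, limma, adjusted p = 5.02e-06). Id1 was also higher in atrial cells (1.03 ± 0.28, adjusted p = 0.0308). Tcf4, a ubiquitous partner factor, was 2.37-fold higher in ventricular cells (-1.20 ± 0.23, adjusted p = 0.00552).

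The HAND factors, which act in ventricular development, leaned to ventricular libraries. The mean of Hand2 was 461 ± 164 normalized reads over atrial libraries and 891 ± 384 over ventricular ones (SD, n = 5). Its log2 difference of -0.90 ± 0.37 did not pass without the block (limma, adjusted p = 0.142; 8.92e-05 with the replicate block). Hand1 did not reach the filter and was not tested: it had 1 read in atrial replicate 1 and 0 in the other atrial libraries, and 1, 4, 31, 23 and 35 reads in ventricular replicates 1 to 5.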
